A study of Mus musculus with 12 samples.

Results

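The cell cycle engine and its checkpoints were examined as a list of 47 genes: 10 cyclin genes, 4 cyclin-dependent kinase (CDK) genes, 7 CDK inhibitor genes, 4 genes of the CDK1 switch, 5 of mitotic kinases and the spindle checkpoint, 3 pocket protein genes, 5 E2F genes, Myc, Trp53 and Mdm2, 4 checkpoint kinase genes, and Timeless and Tipin. They were chosen by name, and all 47 were found among the 23420 genes of the count table. Of the 4740 genomic regions in which BMAL1 ChIP reads were counted, 26 lay within 10 kb of the start of one of these genes.

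The cells were embryonic fibroblasts of 129/sv mice. All of them, treated or not, were per1 -/-, per2 -/-, nr1d1 -/- and nr1d2 -/- and carried a PER2-ER transgene. The promoter that drives the transgene is not given in the labels, and no cells without it were analysed here. They were grown in DMEM with 10% serum and exposed for 4 h to 1 µM 4-hydroxytamoxifen (4-OHT), a ligand of the oestrogen receptor that ER usually stands for in such fusions, or to 0.1% ethanol (EtOH), its solvent. With each agent, mRNA, BMAL1 ChIP and ChIP input were sequenced in 2 libraries, 12 in all, to ask how PER2 induction changes BMAL1 binding and transcript levels. Whether the 2 libraries of a group stem from separate cultures is not stated in the labels, so the spread behind each p-value may be technical.

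Cyclins switch on the CDKs, CDK inhibitors switch them off, and WEE1 and the CDC25 phosphatases set the phosphorylation that holds CDK1 back until mitosis. RB1 and its relatives restrain the E2F factors, which drive the genes of DNA replication, and p53 and the checkpoint kinases stop this engine when DNA is damaged. BMAL1 is the clock activator that binds E-boxes together with CLOCK, PER2 is one of its repressors, and Wee1, Cdkn1a, Ccnd1 and Myc have been described as genes through which the clock touches cell division.

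E-boxes with the letters CACGTG were looked for in the promoter windows that RefSeq gives on GRCm38.p6, the assembly that mm10 names, each with 250 bases before a gene start and 50 from it on. There were 42 such windows for 36 of the cell cycle genes. Ccna2, Ccnd1, Ccnd2, Ccne2, Cdkn1c, Wee1, Cdc25c, Aurkb, Rb1, Myc and Tipin had no entry. CACGTG stood in 5 of the 42 windows (11.9%), against 2349 of all 32851 windows (7.15%). These 5 are printed below 5′ to 3′ with each CACGTG in capitals, because they show where the best known BMAL1 motif lies with and without a BMAL1 region over it. Aurka is added as a window that a BMAL1 region overlaps but that holds no CACGTG. Only the end of that region, up to chr2:172370820, lies in the window, and its bases from there to chr2:172371062 are not printed. The windows are chr10:127063285-127063584 on the plus strand for Cdk4, chr13:29984342-29984641 on the minus strand for an inner start of E2f3, chr5:3343643-3343942 on the plus strand for Cdk6, chr11:69580109-69580408 on the plus strand for Trp53, chr4:109665323-109665622 on the minus strand for Cdkn2c and chr2:172370521-172370820 on the minus strand for Aurka.
Cdk4: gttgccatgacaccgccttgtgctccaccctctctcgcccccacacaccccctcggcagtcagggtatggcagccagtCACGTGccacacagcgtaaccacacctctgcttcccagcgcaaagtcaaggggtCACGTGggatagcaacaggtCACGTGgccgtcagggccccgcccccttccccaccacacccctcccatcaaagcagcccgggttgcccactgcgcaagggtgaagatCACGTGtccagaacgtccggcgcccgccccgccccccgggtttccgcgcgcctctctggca
E2f3: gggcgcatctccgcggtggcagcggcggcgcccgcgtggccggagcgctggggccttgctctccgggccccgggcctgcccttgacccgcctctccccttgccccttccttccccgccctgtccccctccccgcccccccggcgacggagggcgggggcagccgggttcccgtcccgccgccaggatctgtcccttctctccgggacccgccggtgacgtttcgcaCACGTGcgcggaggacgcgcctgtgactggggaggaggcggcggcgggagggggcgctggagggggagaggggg
Cdk6: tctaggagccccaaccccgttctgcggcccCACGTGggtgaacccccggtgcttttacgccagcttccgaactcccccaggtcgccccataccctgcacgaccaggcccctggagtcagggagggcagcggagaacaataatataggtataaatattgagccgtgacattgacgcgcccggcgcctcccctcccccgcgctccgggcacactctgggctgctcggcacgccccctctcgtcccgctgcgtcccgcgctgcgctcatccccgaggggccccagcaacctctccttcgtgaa
Trp53: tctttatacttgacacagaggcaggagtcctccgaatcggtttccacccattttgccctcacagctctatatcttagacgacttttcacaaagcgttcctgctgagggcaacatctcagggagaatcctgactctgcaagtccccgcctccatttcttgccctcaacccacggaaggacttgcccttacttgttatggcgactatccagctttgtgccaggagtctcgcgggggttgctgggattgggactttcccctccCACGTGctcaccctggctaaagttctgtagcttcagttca
Cdkn2c: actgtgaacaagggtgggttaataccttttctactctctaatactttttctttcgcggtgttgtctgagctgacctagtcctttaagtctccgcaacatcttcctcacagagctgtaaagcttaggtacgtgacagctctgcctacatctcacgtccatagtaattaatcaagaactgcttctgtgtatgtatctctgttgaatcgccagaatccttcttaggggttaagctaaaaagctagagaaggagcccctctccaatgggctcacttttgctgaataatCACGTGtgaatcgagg
Aurka: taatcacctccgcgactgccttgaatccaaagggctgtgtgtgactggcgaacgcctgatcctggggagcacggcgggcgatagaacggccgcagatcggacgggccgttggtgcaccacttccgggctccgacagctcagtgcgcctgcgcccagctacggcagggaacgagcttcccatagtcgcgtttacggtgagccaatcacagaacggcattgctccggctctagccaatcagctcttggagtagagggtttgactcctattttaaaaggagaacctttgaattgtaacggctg
The Cdk4 window held 4 copies, whose first bases lay at −172, −118, −98 and −11 from the start, and all 4 lay inside the BMAL1 region described below. E2f3 had 1 copy at −24, also inside its region. The copy of Cdk6 at −220, that of Trp53 at 10 and that of Cdkn2c at 34 lay in windows that no region overlapped.

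Over all genes, 39.1% of the 2086 with a region over a promoter window had CACGTG in such a window, against 5.46% of the 25278 with a window that no region overlapped. Among the cell cycle genes 8 had a region over a window (Aurka, Ccng2, Cdk4, Cdkn2a, E2f1, E2f3, E2f7 and Mdm2), and 2 of them, Cdk4 and E2f3, had the motif there. The variant CACGTT was found in 2 of the 42 windows (4.76%, against 4.68% of all), those of Bub1 and Ccnb2. Letters of 3 motifs known from cell cycle promoters were searched in the same way. CCAAT was in 24 of the 42 windows (57.1%, against 37.4% of all), the CHR core TTTGAA in 9 (21.4%, against 17.9%) and the E2F core GCGCGAA in 2 (4.76%, against 1.59%). Each motif was searched on both strands and counted without regard to the others, and a match describes letters only.

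Reads counted in genes numbered 69292382 and 89695667 in the mRNA libraries with 4-OHT and 71633387 and 60267540 with EtOH. The ChIP and input libraries held between 12481308 and 33454366 reads. Regions took 0.689% and 0.749% of the ChIP reads with 4-OHT and 2.63% and 2.46% with EtOH, against 0.160% to 0.181% in the inputs. Of 9 fibroblast markers, the collagen genes Col1a1, Col1a2 and Col3a1, Vim and Pdgfrb were abundant, but Thy1 and Lum had no read in any library and Dcn at most 0.199 CPM (counts scaled to library size). Pdgfra stood between 11.1 and 13.3 CPM. Endothelial markers summed to 0.158 and 0.144 CPM with 4-OHT and 0.0843 and 0.0669 CPM with EtOH, and muscle and pluripotency markers stayed at or below 1.08 CPM. Myeloid markers summed to between 19.2 and 21.9 CPM, mostly Cd14, and epithelial markers to between 27.0 and 31.0 CPM, mostly Cdh1 and Krt19. Of the 17 markers tested, edgeR and DESeq2 each called 0 different between 4-OHT and EtOH, while edgeR called 2.44% of all genes. At an unadjusted p under 0.05 edgeR gave 3 higher (Col3a1, Pdgfra and Cdh1) and 1 lower (Krt19), against 5.04% and 5.02% of all genes.

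All 47 genes were expressed, with at least 258 reads in every library. Per length of transcript (RPKM, CPM per kilobase of annotated exon), Cdk4 was highest at 490.0 with 4-OHT and 516 with EtOH. Cdkn2a, which encodes the inhibitors p16 and p19ARF, was next at 375 RPKM with 4-OHT and 348 RPKM with EtOH, and the values that follow keep this order. Then came Ccna2 at 135 and 137 RPKM, Cdkn1a, which encodes p21, at 110 and 126 RPKM, and Cdk1 at 112 and 117 RPKM. The lowest were Ccnd2 at 0.777 and 0.748 RPKM, E2f2 at 2.19 and 1.96 RPKM and Cdk6 at 4.66 and 4.50 RPKM, and the median gene stood at 28.1 RPKM. Among the D cyclins, Ccnd3 stood at 44.2 and 44.9 RPKM and Ccnd1 at 12.1 and 10.7 RPKM, well above Ccnd2.

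**Figure D1:**
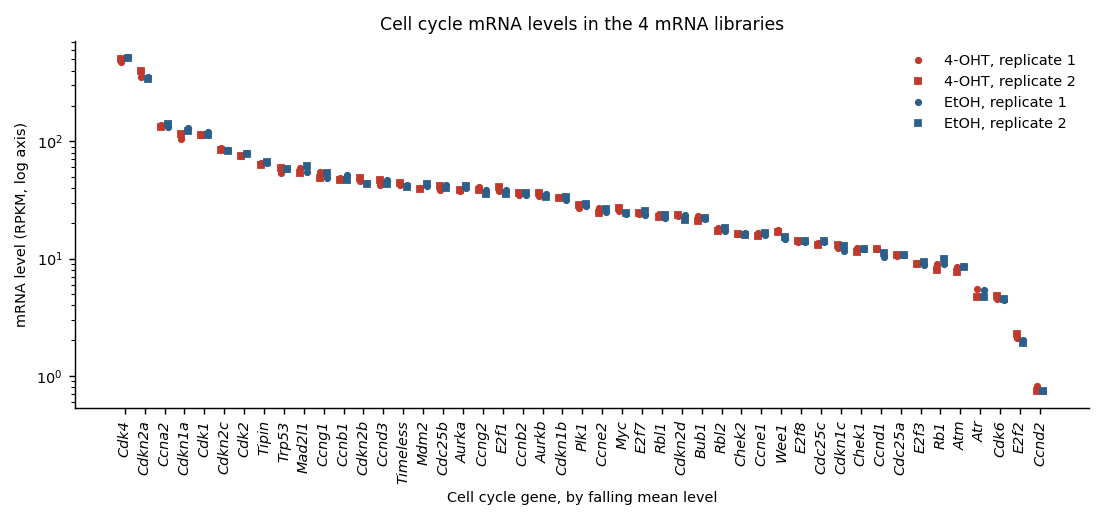
Level of each of the 47 cell cycle genes (x axis, by falling mean) in RPKM on a log y axis, with 4-OHT libraries in red left of EtOH libraries in blue, and circles and squares for replicates 1 and 2. Levels run from 490.0 (4-OHT) and 516 (EtOH) RPKM at Cdk4 down to 0.777 and 0.748 RPKM at Ccnd2, and the 4 points of a gene lie close together.

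After 4 h of 4-OHT no cell cycle gene was called higher or lower in mRNA. Every one of the 47 log2 changes lay between −0.19 (Cdkn1a) and 0.20 (Wee1), with 23 above and 24 below 0 and a median of 0.00. The widest 95% interval bounds were −0.32 and 0.36 on the log2 scale, or 0.80- and 1.28-fold. The test was edgeR's quasi-likelihood test with adjustment over all 13216 genes tested and a threshold of 0.05, which called 106 genes (0.802%) higher and 216 (1.63%) lower, 2.44% in all. At an unadjusted p under 0.05 it gave Wee1 and Ccnd1 higher and Cdkn1a and Rb1 lower, against 5.04% and 5.02% of all genes, and DESeq2 also called 0 of the 47. All 47 changes were within 0.25 of 0, as were 89.5% of all genes, and 40 of the 47 intervals lay wholly within 0.25 of 0. The quartiles were −0.05 and 0.05, against −0.06 and 0.07 over all genes tested. In 18 of the 47 (38.3%) the 2 groups of libraries did not overlap, 8 above and 10 below EtOH, against 36.9% of all genes. In whole cultures, a change in the share of cells at a stage of the cycle and a change in RNA per cell cannot be told apart.

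**Figure D2:**
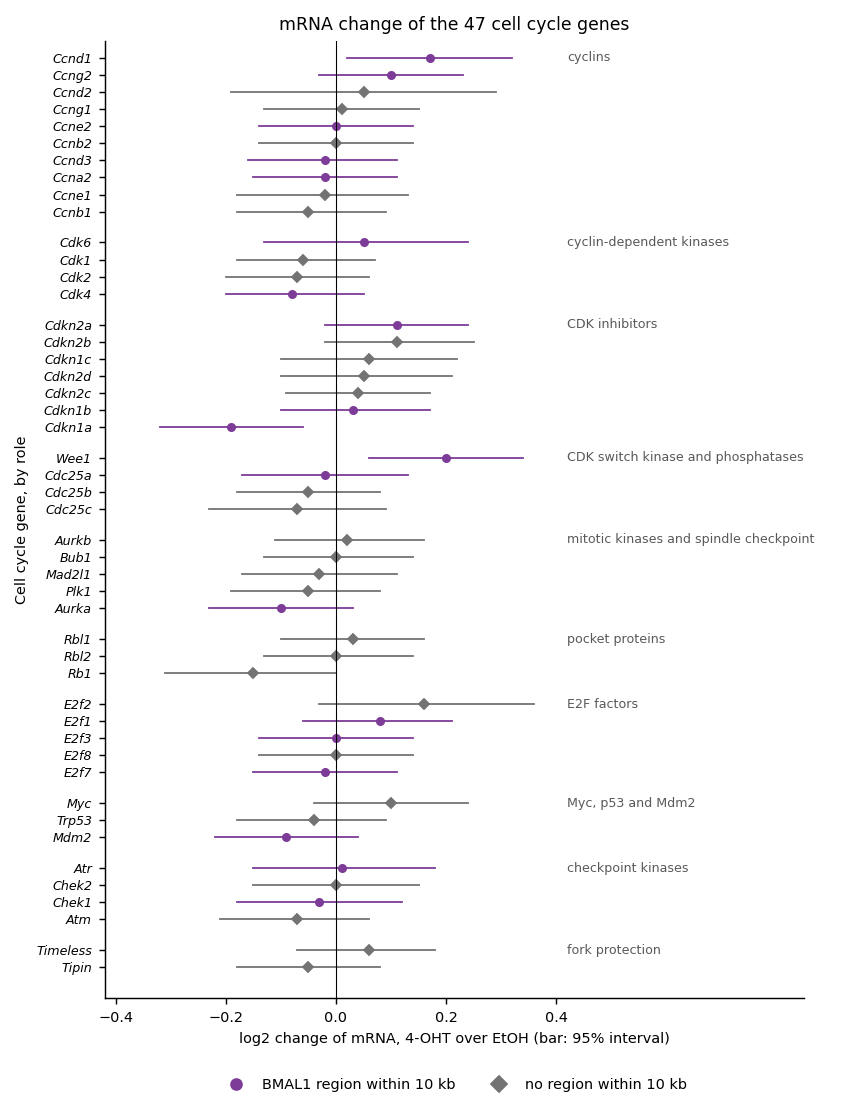
Log2 change in mRNA, 4-OHT over EtOH (x axis), of the 47 cell cycle genes, ordered by role (y axis), with 95% intervals derived from edgeR's test on 2 libraries a group. Purple circles are genes with a BMAL1 region within 10 kb and grey diamonds those without; all points lie between −0.19 and 0.20.

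BMAL1 regions lay near 19 of the 47 genes (40.4%, against 27.1% of the 13197 tested genes that could be placed). With 1 kb as the limit it was 14 of 47 (29.8%, against 21.5%). Of these 19 genes, 13 had 1 region, 5 had 2 and Ccnd1 had 3, and no region was shared by 2 cell cycle genes. The authors' regions are peaks of the EtOH cells, so a site occupied only after 4-OHT would not be among them. Choosing regions by their EtOH signal also favours calls of lower with 4-OHT over calls of higher. How much of the fall stems from this choice was not tested. With 4-OHT, 24 of the 26 regions (92.3%) were called lower in BMAL1 signal and 0 higher, in edgeR's test with library totals, which called 4445 of all 4740 regions (93.8%) lower. In all 26 both 4-OHT libraries stood below both EtOH libraries, as they did at 97.95% of all regions. The median region near a cell cycle gene held 7.32 reads per 10000000 library reads (RP10M) with 4-OHT and 22.4 with EtOH, against 7.99 and 23.7 over all regions. The median log2 change was −1.69, against −1.66 over all regions. Both the share called and the size of the fall were close to those of BMAL1 regions at large.

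Scaled on the regions themselves by TMM factors, which moved the median of all regions to 0.02, 13 of the 26 log2 changes had a positive sign and 4 were called lower (Ccne2, Cdk4, Wee1 and the upstream region of Ccnd3). With DESeq2's own size factors, which also centre the regions, 2 were called lower (Ccne2 and Cdk4). The share of all 4740 regions called in these 2 fits is not given here. The 4 named regions are those with at least 100 RP10M with EtOH. With library totals, all 460 regions of that strength had a median log2 change of −2.13, against −1.6 for all weaker regions. With the change in input subtracted 12 of 26 were called lower, against 2395 of 4740 (50.5%). Of the 12 calls lost in that fit, 5 had smaller log2 changes in it, which were −1.09 at E2f3, −1.24 at Cdkn1b, −1.03 at the exonic region of Ccnd3, −0.53 at Ccnd1 (3369 bp) and −0.78 at Cdk6 (2610 bp). The other 7 were about as low or lower in it, at −1.63 for Aurka, −1.17 for E2f7, −2.16 for the E2f1 start, −2.15 for Ccnd1 (1415 bp), −1.41 for Cdk6 (1568 bp) and −1.80 for each of the 2 at Mdm2. In the inputs edgeR called 0 of the 26 different, with 1 higher and 0 lower at an unadjusted p under 0.05; no other tool was run on the inputs. Over all 4740 regions it also called 0, with 159 higher and 59 lower at that unadjusted p. Signal stood above input at 19 of the 26 regions (73.1%, against 80.6% of all) with 4-OHT and at 26 (100%, against 99.5%) with EtOH. The median ratio to input was 3.54 with 4-OHT and 13.1 with EtOH. Since the regions were called as peaks of the EtOH cells, signal above input with EtOH was largely set in advance. The 7 not above input with 4-OHT held at most 18 reads in either 4-OHT library, at 1.46 to 2.54 times the input.

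**Figure D3:**
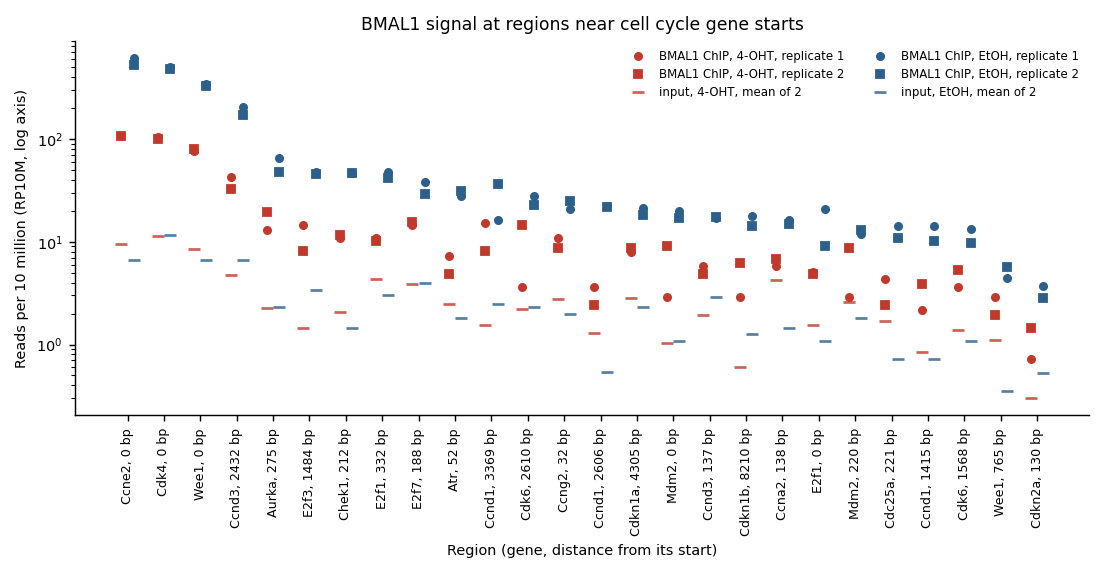
BMAL1 ChIP reads per 10000000 library reads (y axis, log scale) at the 26 regions within 10 kb of cell cycle gene starts (x axis, with distance to the start), 4-OHT in red left of EtOH in blue. Circles and squares are replicates 1 and 2 and dashes the input means; all 4-OHT points lie below the EtOH points of the same region with library totals, while TMM scaling on the regions turns the sign at 13.

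Among the cyclin genes, 5 of 10 had BMAL1 regions, and the gene of the S-phase cyclin E2 had the strongest of the whole list. Its region, chr4:11190585-11191937, covers the Ccne2 start and held 106 and 107 RP10M in the 4-OHT libraries, against 616 and 528 in the EtOH libraries. Both 4-OHT values lay far below both EtOH values, 5.34-fold in the fit (log2 −2.42, SE 0.12, edgeR adjusted p = 6.905e-88). The call was the same in all 11 alternatives, but the log2 change was −0.72 with TMM factors over the regions and −0.70 with DESeq2's own size factors. With EtOH the region ranked 45 of 4740 by signal. Ccne2 mRNA had 86.8 and 78.1 CPM with 4-OHT and 79.8 and 85.3 CPM with EtOH. The groups overlapped, and the log2 change was 0.00 with a 95% interval from −0.14 to 0.14. The strongest BMAL1 region of the list was thus called lower beside a transcript level with a narrow interval around 0.

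Ccnd3 encodes cyclin D3, a partner of CDK4 and CDK6 in G1. A strong region 2432 bp upstream of its start, chr17:47502160-47502619, held 42.2 and 32.8 RP10M with 4-OHT, against 205.2 and 169.5 with EtOH, 5.06-fold lower (log2 −2.34, edgeR adjusted p = 1.475e-43), against a log2 change of −0.64 with TMM factors over the regions and −0.61 with DESeq2's own size factors, where the call was lost (adjusted p = 0.0642). This region covers the start of Taf8, whose mRNA was not called different either (log2 0.04, SE 0.08, edgeR adjusted p = 0.938). A weak exonic region 137 bp from the Ccnd3 start held 5.82 and 4.83 RP10M with 4-OHT and 17.0 and 17.6 RP10M with EtOH. Ccnd3 mRNA had 94.97 and 104.9 CPM with 4-OHT and 105.4 and 97.6 CPM with EtOH, and the groups overlapped (log2 −0.02, SE 0.07). RefSeq gives Ccnd3 another start 88416 bp from the one used here, with no region over its promoter window. Reads were summed per gene, and which start these cells use was not tested.

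Ccnd1 encodes cyclin D1, the cyclin that couples growth factor signals to CDK4. Its mRNA had 45.7 and 45.8 CPM with 4-OHT, against 38.8 and 42.7 CPM with EtOH. Both 4-OHT libraries were above both EtOH libraries, but the difference did not pass the test over all genes (log2 0.17, SE 0.07, edgeR adjusted p = 0.378). Its 3 regions were weak and lay upstream. The one at 2606 bp, chr7:144942531-144942733, held 3.64 and 2.41 RP10M with 4-OHT and 22.2 and 21.6 RP10M with EtOH, the largest fall of the 26 at 7.34-fold, from 5 and 5 reads in the 4-OHT libraries. With 4-OHT it was not above input (1.89-fold, edgeR adjusted p = 0.223). The one at 1415 bp held 2.18 and 3.86 RP10M with 4-OHT and 14.1 and 10.2 RP10M with EtOH. At 3369 bp the values were 15.3 and 8.21 RP10M with 4-OHT and 16.3 and 36.3 RP10M with EtOH, with replicate 1 of both groups close together. The call there (log2 −1.28, edgeR adjusted p = 0.000159) ended without 4-OHT replicate 2 (log2 −0.83, edgeR adjusted p = 0.064) and without EtOH replicate 2 (log2 −0.53, edgeR adjusted p = 0.302).

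Ccna2, which encodes the S and G2 cyclin A2, had 388.7 and 370.8 CPM with 4-OHT and 370.8 and 398.2 CPM with EtOH, with overlapping groups (log2 −0.02, SE 0.06). Its exonic region 138 bp from the start held 5.82 and 6.76 RP10M with 4-OHT and 16.3 and 14.7 RP10M with EtOH, and was not above input with 4-OHT. Ccng2, an unconventional cyclin linked to cell cycle arrest, had 101.3 and 96.4 CPM with 4-OHT and 95.3 and 89.4 CPM with EtOH (log2 0.10, edgeR adjusted p = 0.706). A region 32 bp upstream of Ccng2 held 10.9 and 8.69 RP10M with 4-OHT and 20.74 and 24.95 RP10M with EtOH. The other 5 cyclin genes, Ccnb1 and Ccnb2 of the mitotic cyclins B, Ccnd2, Ccne1 and the p53 target Ccng1, had no region within 10 kb and log2 changes between −0.05 and 0.05.

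Cdk4, the G1 kinase that cyclins D switch on, had the most E-boxes of the windows examined and the second strongest region. The region chr10:127063157-127063924 covers its start and the 4 copies of CACGTG printed above. It held 103.3 and 100.9 RP10M with 4-OHT, against 499 and 476 RP10M with EtOH, 4.78-fold lower (log2 −2.26, SE 0.12, edgeR adjusted p = 6.451e-74). The call was the same in all 11 alternatives, with log2 changes of −0.56 under TMM factors over the regions and −0.54 under DESeq2's own size factors. The signal left with 4-OHT was 8.80-fold above input. Cdk4 mRNA had 640.5 and 678.5 CPM with 4-OHT and 698.7 and 690.8 CPM with EtOH. The 4-OHT libraries were lower without passing the test (log2 −0.08, 95% interval −0.20 to 0.05, edgeR adjusted p = 0.801). The starts of March9, Tspan31 and LOC100504703 also lie within 10 kb of this region. Their log2 changes in mRNA were 0.20 (SE 0.16), −0.05 (SE 0.06) and 0.03 (SE 0.21), and none passed the test.

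Cdk6, the relative of Cdk4, was rare here, with 11.1 and 11.9 CPM with 4-OHT and 11 and 11.2 CPM with EtOH (log2 0.05, SE 0.09). It had 2 weak regions upstream of the annotated start. The one at 2610 bp held 3.64 and 14.5 RP10M with 4-OHT and 28.1 and 22.7 RP10M with EtOH (log2 −1.33). The log2 change was −0.79 without 4-OHT replicate 1 and −2.76 without 4-OHT replicate 2. At 1568 bp the values were 3.64 and 5.31 RP10M with 4-OHT and 13.3 and 9.64 RP10M with EtOH, and that call ended without EtOH replicate 1 (log2 −1.05, edgeR adjusted p = 0.113). The mitotic kinase gene Cdk1 had 320.8 and 320.8 CPM with 4-OHT and 341.0 and 326.3 CPM with EtOH, and Cdk2, the partner of cyclins E and A, 180.6 and 183.6 CPM with 4-OHT and 192.5 and 190.0 CPM with EtOH. Both stood slightly lower in each 4-OHT library (log2 −0.06 and −0.07), neither passed the test, and neither had a region.

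The largest negative change of the list was in a CDK inhibitor gene. Cdkn1a, whose product p21 blocks CDK2 and is induced by p53, had 213.5 and 233.6 CPM with 4-OHT, against 262.9 and 247.3 CPM with EtOH. Both 4-OHT libraries were below both EtOH libraries, by 0.19 on the log2 scale (log2 −0.19, SE 0.07, 95% interval −0.32 to −0.06), and the edgeR adjusted p of 0.152 missed the threshold. The size of the change depended on the library left out. It was −0.13 without 4-OHT replicate 1 and −0.26 without 4-OHT replicate 2. Without EtOH replicate 1 it was −0.15, and without EtOH replicate 2 −0.23. In an intron of Cdkn1a, 4305 bp from its start, the region chr17:29095291-29095459 held 8.01 and 8.69 RP10M with 4-OHT and 21.48 and 18.15 RP10M with EtOH, 2.33-fold lower from 11 and 18 reads in the 4-OHT libraries. That call was lost with DESeq2 and library totals (DESeq2 adjusted p = 0.0558). With TMM factors over the regions the log2 change was 0.47.

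Of the other 6 inhibitor genes all had a positive log2 change, between 0.03 and 0.11, and none passed the test. Cdkn2a had 400.4 and 452.1 CPM with 4-OHT and 402.4 and 388.5 CPM with EtOH, with overlapping groups (log2 0.11, edgeR adjusted p = 0.643); reads were summed per gene, so p16 and p19ARF transcripts are not separated. Its neighbour Cdkn2b, which encodes p15, had 64.1 and 67.4 CPM with 4-OHT and 61.6 and 59.9 CPM with EtOH, without overlap (log2 0.11, edgeR adjusted p = 0.636). The one region at Cdkn2a was 12 bp long with at most 5 reads in a library, and it was 1 of the 2 not called lower (edgeR adjusted p = 0.119). Cdkn1b, which encodes p27, had 80.7 and 79.1 CPM with 4-OHT and 75.3 and 80.8 CPM with EtOH (log2 0.03). Its region lay 8210 bp downstream of the start, past the gene and 301 bp from the start of another gene, 1190002F15Rik. It held 2.91 and 6.28 RP10M with 4-OHT and 17.8 and 14.2 RP10M with EtOH (log2 −1.68). The log2 change was −1.32 without 4-OHT replicate 1 and −2.41 without 4-OHT replicate 2. Cdkn1c, Cdkn2c and Cdkn2d had no region within 10 kb of the annotated start; counted from a second start of Cdkn2c in the RefSeq table, 1 region lay 9480 bp away.

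Wee1, whose kinase holds CDK1 inactive before mitosis, had the largest positive change of the list and a strong region. The region chr7:110121317-110122564 covers its start and held 75.7 and 79.2 RP10M with 4-OHT, against 344.4 and 326.1 RP10M with EtOH. BMAL1 signal there fell 4.31-fold (log2 −2.11, SE 0.13, edgeR adjusted p = 6.516e-55) and remained 9.08-fold above input with 4-OHT. With TMM factors over the regions the log2 change was −0.41, and with DESeq2's own size factors it was −0.40 and the call was lost (adjusted p = 0.0969). Wee1 mRNA had 59.6 and 57.8 CPM with 4-OHT and 49.8 and 52.4 CPM with EtOH. It was thus higher in both 4-OHT libraries, where BMAL1 signal was lower, with a log2 change of 0.20 (SE 0.07, 95% interval 0.06 to 0.34) that missed the threshold (edgeR adjusted p = 0.164). A piece of 54 bp inside the gene, with at most 10 reads in a library, was the other region not called lower (edgeR adjusted p = 0.0957).

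None of the 3 genes of the CDC25 phosphatases, which oppose WEE1, passed the test. Cdc25a had 38.1 and 38.7 CPM with 4-OHT and 38.9 and 38.9 CPM with EtOH (log2 −0.02, SE 0.07). Its exonic region, 221 bp from the start, held 4.37 and 2.41 RP10M with 4-OHT and 14.1 and 10.8 RP10M with EtOH, and was not above input with 4-OHT. Cdc25b and Cdc25c had no region and log2 changes of −0.05 and −0.07.

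Aurka, the gene of a mitotic spindle kinase, was the only 1 of the 5 mitotic kinase and spindle checkpoint genes with a region. The region chr2:172370781-172371062 lies 275 bp upstream of its annotated start and covers the start of Cstf1, which is read the other way. It held 13.1 and 19.3 RP10M with 4-OHT, against 65.2 and 48.2 RP10M with EtOH, 3.36-fold lower (edgeR adjusted p = 7.061e-10). With TMM factors over the regions the log2 change was −0.05 and the call was lost (edgeR adjusted p = 0.949). Aurka mRNA had 71.7 and 72.5 CPM with 4-OHT and 76.0 and 78.6 CPM with EtOH. Both 4-OHT libraries were lower (log2 −0.10, SE 0.07, edgeR adjusted p = 0.699), while Cstf1 stood at a log2 change of −0.01. Plk1, Aurkb, Bub1 and Mad2l1 had log2 changes between −0.05 and 0.02, and in each of them the groups overlapped.

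No BMAL1 region lay near the 3 pocket protein genes. Rb1, the restraint on E2F, had 41.4 and 36.9 CPM with 4-OHT and 41.5 and 45.6 CPM with EtOH. Both 4-OHT libraries were lower, the first only just below the lower EtOH library (log2 −0.15, SE 0.08, edgeR adjusted p = 0.494). Rbl1 and Rbl2, its relatives, had log2 changes of 0.03 and 0.00.

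Of the E2F genes, the activators E2f1 and E2f3 and the repressor E2f7 had regions near them. E2f1 had 91.96 and 100.3 CPM with 4-OHT and 94.7 and 87.5 CPM with EtOH, with overlapping groups (log2 0.08, edgeR adjusted p = 0.812). A region 332 bp inside the gene, chr2:154569115-154569520, held 10.9 and 10.1 RP10M with 4-OHT and 47.4 and 41.96 RP10M with EtOH. Over its start, values were 5.09 and 4.83 RP10M with 4-OHT and 20.7 and 9.07 RP10M with EtOH, a call that ended without EtOH replicate 1 (log2 −0.87, edgeR adjusted p = 0.189).

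E2f3 mRNA stood at 47.1 and 45.5 CPM with 4-OHT and 45.1 and 47.5 CPM with EtOH (log2 0.00, SE 0.07). Its region, chr13:29984273-29984579, holds the CACGTG printed above for the inner start, 1672 bp inside the gene. The region held 14.55 and 8.21 RP10M with 4-OHT, against 48.1 and 45.9 RP10M with EtOH, 4.30-fold lower (edgeR adjusted p = 6.768e-11). With TMM factors over the regions the log2 change was −0.42 and the call was lost (edgeR adjusted p = 0.538). E2f7 had 130.9 and 132.7 CPM with 4-OHT and 128.5 and 139.0 CPM with EtOH (log2 −0.02). The region 188 bp upstream of E2f7 held 14.55 and 15.45 RP10M with 4-OHT and 38.5 and 28.9 RP10M with EtOH, 2.21-fold lower. E2f2, a rare transcript with no region, had 9.99 and 10.8 CPM with 4-OHT and 9.53 and 9.02 CPM with EtOH; both 4-OHT libraries were higher, with a wide interval from −0.03 to 0.36 around a log2 change of 0.16 (edgeR adjusted p = 0.624). E2f8, a repressor like E2f7, had a log2 change of 0.00.

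Mdm2, which encodes the ubiquitin ligase that removes p53, had 122.0 and 119.0 CPM with 4-OHT and 126.8 and 130.2 CPM with EtOH. Both 4-OHT libraries were lower (log2 −0.09, SE 0.06, edgeR adjusted p = 0.734). The region over its start held 2.91 and 9.17 RP10M with 4-OHT and 20.0 and 17.0 RP10M with EtOH (log2 −1.47). A second region 220 bp inside the gene had the smallest fall of the 26, 1.98-fold, with 2.91 and 8.69 RP10M with 4-OHT and 11.85 and 13.0 RP10M with EtOH. Its call (log2 −0.98, edgeR adjusted p = 0.0265) ended without 4-OHT replicate 1 (log2 −0.52, edgeR adjusted p = 0.236), without EtOH replicate 1 (log2 −1.06, edgeR adjusted p = 0.075) and without EtOH replicate 2 (log2 −0.92, edgeR adjusted p = 0.147). Without 4-OHT replicate 2 it held at a log2 change of −2.07 (edgeR adjusted p = 0.00364), and with 4-OHT the region was not above input (edgeR adjusted p = 0.068). Neither Trp53 nor Myc had a region within 10 kb. Trp53, the gene of p53, had a log2 change of −0.04 and the growth regulator Myc 0.10, with 60.7 and 64.1 CPM of Myc with 4-OHT and 57.6 and 59.1 CPM with EtOH (edgeR adjusted p = 0.739).

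The checkpoint kinase genes Chek1 and Atr, which act on stalled replication forks, had regions, while Chek2 and Atm, which act on broken DNA, had none. Chek1 had 41.8 and 38.9 CPM with 4-OHT and 41.2 and 41.3 CPM with EtOH (log2 −0.03, SE 0.07). In its intronic region, chr9:36726174-36726446, 212 bp from the start, BMAL1 signal was 10.9 and 11.6 RP10M with 4-OHT, against 46.7 and 47.1 RP10M with EtOH, 4.13-fold lower (edgeR adjusted p = 1.516e-10). Atr had 44.0 and 37.8 CPM with 4-OHT and 43.1 and 37.7 CPM with EtOH (log2 0.01, SE 0.08). Its exonic region, 52 bp from the start, which also covers the start of 1700065D16Rik, held 7.28 and 4.83 RP10M with 4-OHT and 28.1 and 31.2 RP10M with EtOH, 5.05-fold lower, and was not above input with 4-OHT. With TMM factors over the regions the calls at the Chek1 and Atr regions were lost. Chek2 and Atm had log2 changes of 0.00 and −0.07. Timeless and Tipin, whose products form a complex that protects replication forks, had no region; Timeless had 192.0 and 197.1 CPM with 4-OHT and 190.6 and 183.8 CPM with EtOH (log2 0.06), and Tipin had a log2 change of −0.05.

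The 4 cell cycle regions with at least 100 RP10M with EtOH (Ccne2, Cdk4, Wee1 and the upstream one of Ccnd3) were 4.31- to 5.34-fold lower with 4-OHT, and the 460 such regions in all had a median log2 change of −2.13. The other 22 were 1.98- to 7.34-fold lower with a median log2 change of −1.50, against −1.60 for all weaker regions. These weaker regions held few reads, since 19 of the 26 had under 25 reads in both 4-OHT libraries.

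At none of the 19 genes was mRNA called different. All but Cdkn2a had a region called lower in BMAL1 signal with library totals. The region of Cdkn2a was not called (edgeR adjusted p = 0.119). With TMM factors over the regions, the strongest region had a positive log2 change at 9 of the 19 genes. The median log2 change in mRNA of the 19 genes was 0.00, as was that of the 28 genes without a region, whose interval bounds ran from −0.31 to 0.36. The 4 genes with a strong region had log2 changes of 0.00 (Ccne2), −0.08 (Cdk4), 0.20 (Wee1) and −0.02 (Ccnd3) beside falls in BMAL1 signal of 4.31- to 5.34-fold. In the authors' deposited table of the same mRNA comparison, 18 of the 47 genes were listed, all of them among the 19 with a region. None of the 18 was called in the authors' deposited table, which calls 82 of its 3317 genes (2.47%), and where log2 changes ran from −0.16 (Cdkn1a) to 0.16 (Wee1) and the lowest adjusted p was 0.163.

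**Figure D4:**
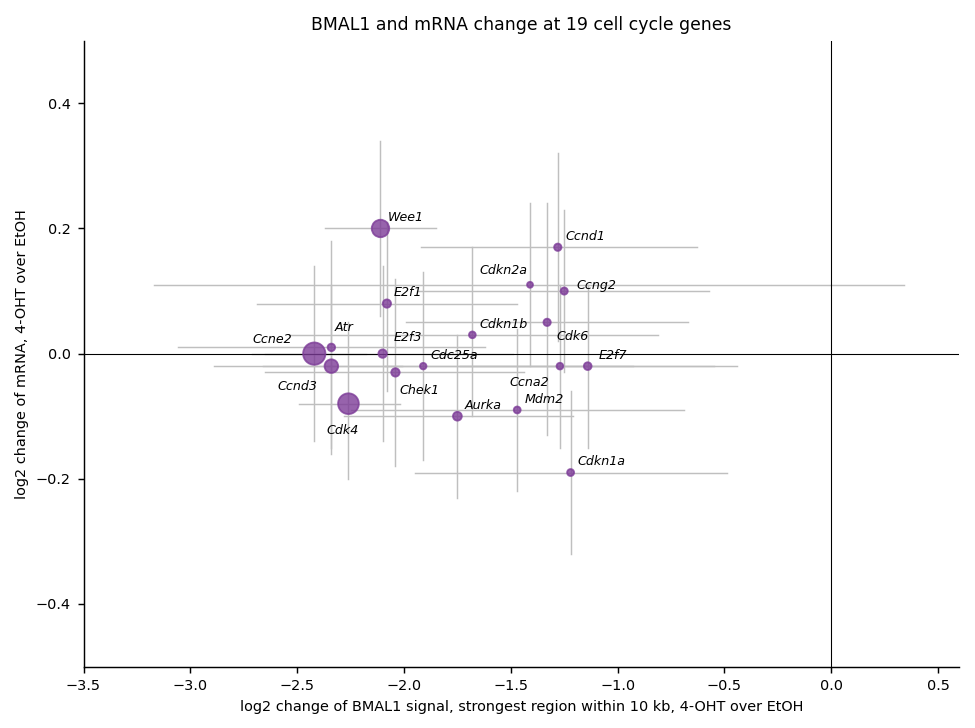
Log2 change in BMAL1 signal at the strongest region within 10 kb (x axis, library totals) and log2 change in mRNA (y axis), 4-OHT over EtOH, for the 19 cell cycle genes with a region; bars are 95% intervals and a larger circle means more signal with EtOH. All points lie left of 0 in BMAL1 signal, which TMM scaling on the regions turns positive for 9 of them, and between −0.19 and 0.20 in mRNA.

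Other genes of the cycle, taken as lists by function, gave 1 call among 83 tested genes, against 2.44% of all genes. In edgeR, 0 were called among 19 replication licensing and fork genes, 23 mitotic and anaphase genes, 12 genes of MuvB, DP and cell cycle transcription factors and 9 genes of ubiquitin ligases for cyclins and inhibitors. None of these 4 lists had a gene at an unadjusted p under 0.05 or a call by DESeq2. Of 20 p53 target genes 1 was called higher and 0 lower, by edgeR and by DESeq2, with 3 higher and 0 lower at an unadjusted p under 0.05 in edgeR. Over all genes 0.802% were called higher and 5.04% were higher at that unadjusted p. The called gene was Phlda3, a p53 target that restrains AKT, with 70.3 and 78.7 CPM with 4-OHT, against 61.6 and 59.3 CPM with EtOH (log2 0.30, SE 0.07, edgeR adjusted p = 0.0057). Cdkn1a and Mdm2, also p53 targets, stood at negative log2 changes that did not pass the test. Median log2 changes of the lists ran from −0.06 in the mitotic genes, where 18 of 23 were below 0, to 0.01 in the licensing genes, where 12 of 19 were above 0, against 0.00 over all genes tested. The summed CPM of the mitotic list overlapped between groups, at 5020 and 4750 with 4-OHT and 4980 and 5270 with EtOH.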

How the data were processed

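The authors' deposited gene counts sum reverse-stranded reads over the exons of each gene of a UCSC mm10 annotation (featureCounts v1.5.0-p1, per the file headers). What aligned them was not given in the sources used here. The mRNA libraries, per the labels, were made with a TruSeq stranded kit, ChIP used a BMAL1 antibody on formaldehyde-crosslinked chromatin, and a ThruPLEX kit served for the ChIP libraries. Also named in the submitters' processing notes are bedtools 2.25.0 and DESeq2, the second without a version. The authors' deposited counts for ChIP and input cover the same 4740 regions in each of 8 libraries. The regions' names mark them as MACS2 peaks of the control; pooling of replicates for calling is not stated. The caller's deposited fold enrichment, a ratio, served only as a filter in an alternative, and its deposited −log10 values and scores were not tested. The authors' deposited signal table is named RPKM, but its values equal 5 plus reads per 10000000 library reads, with no division by length, and library totals follow from it as whole numbers. The authors' comparison table holds their log2 changes and p-values.

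Counts were tested in edgeR 4.0.16 (R 4.3.3) by robust quasi-likelihood fits with Benjamini-Hochberg adjustment over all features. The mRNA fit used TMM factors (0.992 to 1.01) and the default expression filter, and ChIP and input fits used library totals, because TMM factors over regions centre a shared change near 0. Log2 changes have edgeR's default prior count. CPM are counts of kept genes scaled to library size with TMM factors. The edgeR test gives no SE, so each SE was the absolute log2 change divided by the square root of its F statistic. The 95% intervals were built from this SE and a t quantile. The mRNA and ChIP tests of 4-OHT against EtOH were checked on simulated counts with 1 fixed spread and changes in both directions. In mRNA, 47.8% of simulated log2 changes of 0.3 and 82.1% of those of 0.5 were called. Most real regions were called lower, so the ChIP simulation does not match the ChIP data. A gene's start was the outermost upstream exon end in the annotation. Region reads are not unique molecules, so precision covers counting error and library spread only.

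The 47 genes, the other lists and the tests were chosen with earlier results of these data known. Values in every library are given for members with a call or a region, for the 5 largest changes in each direction and for the 3 highest levels. Myc, Cdk1, Cdk2 and Timeless were added after their values were seen. Alternatives were DESeq2 1.42.0, other scalings, filters, distances, a replicate block and leaving out each library.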

Additional observations from a re-analysis of the deposited data

How the results depend on the processing

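In mRNA, DESeq2, library totals without TMM factors, no filter on low counts and the replicate block each called 0 of the 47 genes. Leaving out each library gave 0 to 1 called lower (Cdkn1a without 4-OHT replicate 2) and 0 higher, and the cause was not tested. Replicate numbers do not pair the libraries by the labels, and deviations of same-numbered libraries correlated at −0.16 in mRNA, 0.0341 in ChIP and 0.00815 in input. With crossed numbers as the block, an alternative chosen after seeing the data, 2 genes were called higher and 1 lower. For this fit and those with a library left out, the share of all genes called is not given here.

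Of 26 regions, 24 were called lower with the replicate block, 18 with DESeq2 and library totals and 12 with the input change subtracted. The calls lost with DESeq2 and library totals were those of Cdkn1a, Ccna2, the E2f1 start, Cdk6 (1568 bp), Mdm2 (intronic) and Ccnd1 (3369 bp). With TMM factors over the regions 4 were called lower, and with DESeq2's own size factors 2. These last 2 settings centre the regions on their own median. Leaving out each ChIP library gave 21 to 23. Regions above input numbered 4 with 4-OHT and 4 with EtOH under TMM factors, and 13 to 19 with 4-OHT and 25 to 26 with EtOH when each library was left out; the block gave 19 and 26. Under TMM factors the log2 change was positive at 13 regions, from 0.01 (Cdkn1b), 0.16 (E2f1 start), 0.21 (Cdkn2a) and 0.22 (Mdm2 start) over 0.36 and 0.40 (Cdk6), 0.40 (Ccnd1, 3369 bp), 0.41 (Ccna2), 0.43 (Ccng2) and 0.47 (Cdkn1a) to 0.53 (Wee1, 54 bp), 0.55 (E2f7) and 0.70 (Mdm2, intronic).

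Leaving out 1 library turned the sign of mRNA changes near 0 that passed no test: Ccna2 (−0.07 to 0.04), Ccnd3 (−0.10 to 0.05), E2f7 (−0.08 to 0.04), Chek1 (−0.08 to 0.02), Cdkn1b (−0.02 to 0.09) and Atr (−0.10 to 0.12). Members with a region numbered 14, 18 and 25 at 1, 5 and 25 kb, and 16 of 36 from RefSeq starts, a setting chosen after seeing the data. Starts from every first exon were not run, since the exon list does not mark first exons.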
